A study of Mus musculus with 6 samples.

Results

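The genes described here are 38 mouse genes of muscle contraction and the neuromuscular junction, among 21701 protein-coding genes with a unique symbol. They were chosen by name, with earlier results of these data known. They were examined in peak lists from ChIP-seq of the wild-type mouse forelimb (strain B6CBAF1) at E12.5, cut into a distal piece (DFL, the future hand) and a proximal piece (PFL, the arm). In both pieces ChIP was made against H3K27ac, which marks promoters and enhancers in use, against H3K27me3, which marks genes under Polycomb repression, and against CTCF, a protein that anchors chromatin loops. There was 1 library for each mark and piece, from pooled tissue, so no difference below has a replicate check and none carries a p-value. The lists of the transcription factors HOXA13 and HOXD13, from younger forelimbs, are tied to none of the 6 samples and served only to place binding sites. The sample titles give the stage as E12, and all groups shared genotype, strain and stage.

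Skeletal muscle contracts when myosin heads of the thick filament pull on the actin of the thin filament within the sarcomere, a repeat bounded by Z discs. Calcium released from the sarcoplasmic reticulum binds troponin on the thin filament and shifts tropomyosin away from the myosin-binding sites on actin. The signal to release calcium begins at the neuromuscular junction, where acetylcholine from the motor nerve opens receptors clustered on the muscle fibre. In the limb, muscle precursors migrate in from the somites, and differentiating muscle masses lie in the proximal part before muscle is found further out. By role, 11 of the 38 genes encode thin filament proteins, 10 thick filament proteins or titin, 4 proteins of the Z disc, thin filament scaffold and cytoskeleton, 5 proteins of excitation and energy supply, 6 proteins of the neuromuscular junction, and 2 an adhesion molecule and a transcription factor.

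H3K27ac gave 59804 regions covering 36.5 Mb in DFL and 69503 regions covering 44.0 Mb in PFL, so the PFL list was the larger. H3K27me3 gave 9083 regions in DFL and 13873 in PFL, and CTCF gave 54673 in DFL and 52801 in PFL. Signal strength is given below as the summit pileup, the number of overlapping fragments at the highest point of a region. The lowest local background was 12.49 fragments in DFL and 11.88 in PFL for H3K27ac, and at that background a pileup of 25 in DFL and of 24 in PFL was the smallest that was called. A promoter without a region was therefore one whose pileup stayed under the limit of the peak caller, not one shown to lack the mark. The promoter of Hoxa13, a digit gene, had a pileup of 353 in DFL and 235 in PFL, and that of Shox2, a proximal limb gene, had 71 in DFL and 331 in PFL. Not every gene of the distal and proximal lists followed its piece, since Sall1, of the distal list, had 261 in DFL and 330 in PFL, and Hoxa11, of the proximal list, had 24599 bp of H3K27ac in DFL and 15570 bp in PFL within 50 kb.

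A gene was counted as marked in a piece when any of its transcripts started within 2 kb of a region. None of the 38 promoters had H3K27ac in DFL alone, 23 had it in PFL alone, 14 had it in both pieces, and only that of Casq2, which encodes a calcium-binding protein of the sarcoplasmic reticulum, had it in neither. The DFL-alone share was 0 (Wilson 95% upper bound 9.18%) and the PFL-alone share was 60.5% (Wilson 95% interval 44.7 to 74.4%, counting error only). These intervals do not extend to other genes, since the 38 were chosen with earlier results known and read from the same libraries. Over all genes, 1.16% were marked in DFL alone, 3.59% in PFL alone and 58% in both. Among the 13623 genes marked in either piece, PFL alone made up 5.73%. The 38 genes supplied 2.95% of the 780 promoters marked in PFL alone across the genome. Counting 1 gene for each of the 35 stretches of overlapping 50 kb windows, 20 of 35 were marked in PFL alone, and among the 33 genes with no start of another gene within 4 kb, 22 were.

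In bulk tissue, fewer muscle cells in a piece and less of the mark in each cell cannot be told apart. The PFL-alone promoters were of moderate strength. Their highest pileups ran from 25 to 101 fragments, with a median of 51, and in 17 of 23 genes the pileup was at least 1.5 times the smallest called in DFL. The fold over the local background, a ratio, ran from 1.87 to 4.87 with a median of 3.08, against a median of 2.75 over all 780 PFL-alone promoters and of 6.56 in PFL for promoters marked in both pieces. At a fold of at least 5, which none of the 23 reaches, 2 of the 38 promoters were marked in DFL alone (Mef2c and Mylpf) and 2 in PFL alone (Chrnb1 and Ryr1). With the H3K27ac lists cut to equal size by q, 22 of the 23 stayed PFL-alone, all but Acta1.

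**Figure D1:**
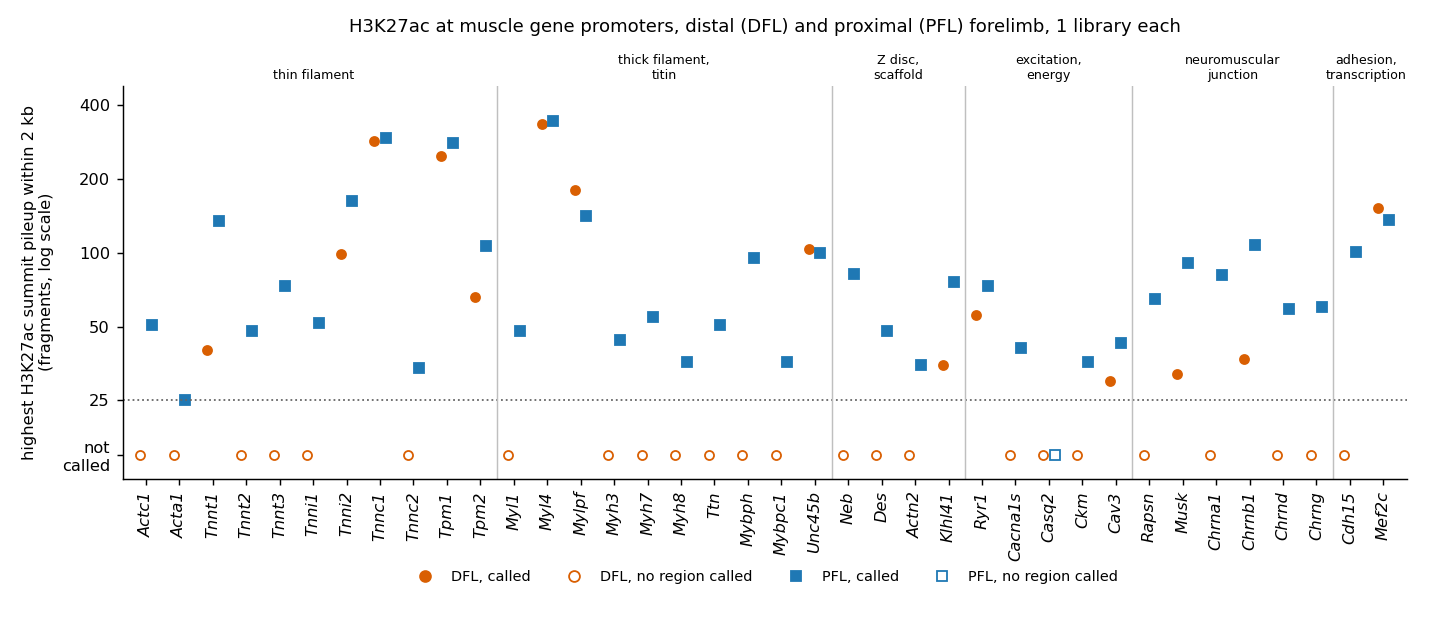
Highest H3K27ac summit pileup (fragments, log axis) within 2 kb of a start of each of the 38 genes, grouped by role, with DFL as circles to the left of PFL as squares; open symbols on the bottom row mark promoters with no region called, and the dotted line is the smallest pileup called in DFL at its lowest background, 25. Of the 38 genes, 24 have an open DFL symbol and 1, Casq2, an open PFL symbol, while Tnnc1, Tpm1, Myl4, Mylpf, Unc45b and Mef2c have about the same height in both pieces.

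Among thin filament genes, 6 of 11 promoters were marked in PFL alone and 5 in both pieces. No region was called in DFL for either sarcomeric actin. Actc1 (chr2:114047282-114053548 in mm10, minus strand), the cardiac alpha-actin that embryonic skeletal muscle also uses, had a pileup of 51 in PFL, and Acta1 (chr8:123891769-123894751, minus strand), the skeletal alpha-actin, had one of 25. The Acta1 region was the weakest of all 23, with a fold of 1.87 and a −log10 q of 1.31, next to the q limit of the list. For the troponin T genes, which encode the subunit that ties troponin to tropomyosin, the DFL region was weaker or not called. Tnnt2 (cardiac and embryonic form) had no region in DFL and a pileup of 48 in PFL, Tnnt3 (fast fibres) none in DFL and 73 in PFL, and Tnnt1 (slow fibres) 40 in DFL and 135 in PFL. For the inhibitory subunits, Tnni1 (slow fibres) had no DFL region and a PFL pileup of 52, while Tnni2 (fast fibres) had 99 in DFL and 163 in PFL. Tnnc2, the calcium-binding subunit of fast fibres, had no DFL region and a PFL pileup of 34.

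The promoters of Tpm1 and Tpm2, which encode tropomyosins and of which Tpm1 is also made in many cells other than muscle, were marked in both pieces. Tpm2 had a highest pileup of 66 in DFL and 107 in PFL. Tpm1 (chr9:67022590-67049406, minus strand) had 248 in DFL and 280 in PFL, but these lay at different starts. At its outer start, where the transcripts of the long tropomyosins begin, the pileup was 162 in DFL and 280 in PFL, and at an inner start (chr9:67043138-67043972 in DFL) it was 248 in DFL and 207 in PFL. So the order of the pieces was opposite at the 2 starts. Tnnc1, the calcium-binding subunit of slow and cardiac muscle, had 286 in DFL and 294 in PFL. The summits were at -2111 and -2120 bp from its start. This region lies next to the start of another gene, Nisch, 1486 bp from that of Tnnc1. It is nearer to the Nisch start than to that of Tnnc1, and its assignment was not tested.

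Among the 10 thick filament genes, 7 were marked in PFL alone. All 3 myosin heavy chain genes of the set lacked a DFL region. The PFL pileup was 44 for Myh3 (chr11:67078300-67102291, plus strand), the embryonic heavy chain, 36 for Myh8, the perinatal one, and 55 for Myh7, the slow one, whose region had its summit upstream, at -2073 bp from the start. Ttn, which encodes titin, the spring of the sarcomere, had 3 PFL regions with a highest pileup of 51. Mybph and Mybpc1, which encode myosin-binding proteins, had PFL pileups of 95 and 36. Of the light chains, Myl1, the essential light chain of fast fibres, had no DFL region and 3 PFL regions of up to 48 fragments. Myl4, the embryonic and atrial essential light chain, had 337 in DFL and 344 in PFL, and Mylpf, the fast regulatory light chain, had 180 in DFL and 142 in PFL. These starts lie 180 bp from that of Cdc27 (Myl4) and 431 bp from that of Tbc1d10b (Mylpf). In addition, Myl4 had a region at an inner start in PFL that DFL lacked (chr11:104577348-104578117, pileup 43), and this start is clear of Cdc27. Unc45b, a chaperone that folds myosin, had 104 in DFL and 100 in PFL from a region upstream of its start and near that of Nle1, 2139 bp away.

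In the Z disc and scaffold group 3 of 4 were marked in PFL alone. Neb (chr2:52136647-52378474, minus strand), which encodes nebulin, the ruler of the thin filament, had the highest fold of all 23, 4.87 at a pileup of 82 and a −log10 q of 28.9, at a start inside the gene. Des, the intermediate filament desmin, had 3 PFL regions of up to 48 fragments, and Actn2, the Z disc alpha-actinin, had 1 PFL region of 35 fragments. Klhl41, which stabilises nebulin, was marked in both pieces, but by different regions, at 35 fragments in DFL and 76 in PFL. In the excitation and energy group, 2 of 5 were marked in PFL alone. Cacna1s, the voltage sensor of the T-tubule, had a PFL pileup of 41, although Ascl5 starts 1946 bp from it, and Ckm, muscle creatine kinase, had one of 36. Ryr1, the calcium release channel, had 56 in DFL and 73 in PFL, and Cav3, muscle caveolin, had 30 in DFL and 43 in PFL.

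At the neuromuscular junction, 4 of 6 promoters were marked in PFL alone. The acetylcholine receptor of fetal muscle is built from the products of Chrna1, Chrnb1, Chrnd and Chrng. Chrna1, the subunit that carries the binding site for acetylcholine, had no DFL region and a PFL pileup of 81 (fold 4.49). Chrnd and the fetal subunit gene Chrng, which lie next to each other on chromosome 1, had none in DFL and 59 and 60 in PFL. Chrnb1 had 37 in DFL (95% Poisson interval 26.1 to 51.0, counting error only) and 108 in PFL (88.6 to 130.4). Rapsn, the scaffold that clusters the receptor, had no DFL region and a PFL pileup of 65 with a fold of 4.62. Musk (chr4:58285960-58374303, plus strand), the receptor kinase that starts the clustering, had 32 in DFL (21.9 to 45.2) and 91 in PFL (73.3 to 111.7). The remaining members were Cdh15, which encodes the muscle cadherin and had no DFL region and the highest pileup of the 23 in PFL, 101, and Mef2c, a transcription factor also used outside muscle, with 153 in DFL and 136 in PFL.

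The 14 promoters marked in both pieces were compared by the ratio of DFL to PFL pileup, each divided by the lowest background of its library. The median was 0.70, against 0.90 over 12587 genes with a value in both, whose central 90% ran from 0.648 to 1.198. In 4 of the 14 the DFL level was at most 0.5 of the PFL level, a share of 28.6% beside 1.32% of all genes. These were Tnnt1 (0.28), Chrnb1 (0.33), Musk (0.33) and Klhl41 (0.44). Tnni2 (0.58) and Tpm2 (0.59) also lay below the central range. Cav3 (0.66), Ryr1 (0.73), Tpm1 (0.84), Tnnc1 (0.93), Myl4 (0.93), Unc45b (0.99) and Mef2c (1.07) lay within it, and Mylpf (1.21) just above. For Klhl41 and Tpm1 the highest regions of the pieces were different ones. The Mylpf ratio was that of its upstream region, while its region downstream of the start had 86 in DFL and 138 in PFL. Relative to the median gene the median of the 14 was 0.77. The local background around some of these promoters was itself higher in PFL, 14.6 fragments in DFL and 39.7 in PFL at the strongest Tnnt1 region, and 15.05 in DFL and 25.4 in PFL at that of Tpm2. Summed over all 38 promoters, with 0 where none was called, the highest pileups came to 1703 fragments in DFL and 3348 in PFL, a ratio of 0.51. A 0 stood for a pileup under the calling limit, at 24 promoters in DFL and 1 in PFL, which lowers this ratio. The same sum over 8 housekeeping genes, all with a region called in both pieces, was 2215 in DFL and 2343 in PFL, a ratio of 0.95. Several other lists lay between, with ratios of 0.62 for proximal limb, 0.67 for smooth muscle, 0.69 for nerve and Schwann cell and 0.74 for tendon genes, and 0.68 for other contraction genes.

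Promoter sequence was read from RefSeq (GRCm38.p6, the mm10 build), 250 bases before to 50 after a start, for 33 of the 38 genes, which gave 38 windows. E-boxes bind the MyoD family of muscle regulators, the MCAT box TEAD factors, the CArG box serum response factor and the MEF2 site MEF2 proteins. The letters CAGCTG, an E-box that reads the same on both strands, were present in 17 of the 38 windows (44.7%) and in 16.3% of all 32851 windows. The E-box CACCTG or its reverse CAGGTG was in 31.6% against 20.2%, the MCAT box CATTCC on either strand in 31.6% against 14.7%, and TATAAA on the gene's strand in 10.5% against 8.32%. The CArG box was in 5.26% (Actc1 and Acta1) against 1.63%, and the MEF2 site in 10.5% (Myh8, Ttn, Casq2 and Klhl41) against 3.19%, both searched on either strand. No matches of different kinds overlapped in the members' windows. A match is a run of letters and not a binding site. The windows below show 5 PFL-alone promoters, picked after the matches were known for the kinds of motif they hold: the actins for CArG and TATA, the receptor subunits for paired CAGCTG, and titin for MEF2. They run 5′ to 3′ on the gene's strand, with motif letters in capitals.
Acta1, chr8:123894726-123895025, minus strand: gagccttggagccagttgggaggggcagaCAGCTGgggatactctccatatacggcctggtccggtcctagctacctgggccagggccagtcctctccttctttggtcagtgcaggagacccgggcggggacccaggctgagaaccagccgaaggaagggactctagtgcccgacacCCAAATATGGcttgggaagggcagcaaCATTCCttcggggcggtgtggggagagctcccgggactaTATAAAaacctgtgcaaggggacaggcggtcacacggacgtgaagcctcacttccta
Actc1, chr2:114052826-114053125, minus strand: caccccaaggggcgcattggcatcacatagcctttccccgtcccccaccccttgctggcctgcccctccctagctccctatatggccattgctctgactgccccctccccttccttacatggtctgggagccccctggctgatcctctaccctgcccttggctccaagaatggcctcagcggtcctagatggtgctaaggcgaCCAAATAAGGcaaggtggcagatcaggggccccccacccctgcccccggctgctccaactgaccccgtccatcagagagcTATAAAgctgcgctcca
Chrna1, chr2:73580289-73580588, minus strand: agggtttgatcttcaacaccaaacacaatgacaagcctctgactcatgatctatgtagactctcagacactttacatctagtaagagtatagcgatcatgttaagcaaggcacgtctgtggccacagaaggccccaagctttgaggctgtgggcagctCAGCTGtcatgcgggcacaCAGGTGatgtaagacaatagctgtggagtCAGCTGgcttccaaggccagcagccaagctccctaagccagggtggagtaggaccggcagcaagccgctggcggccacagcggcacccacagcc
Chrng, chr1:87205561-87205860, plus strand: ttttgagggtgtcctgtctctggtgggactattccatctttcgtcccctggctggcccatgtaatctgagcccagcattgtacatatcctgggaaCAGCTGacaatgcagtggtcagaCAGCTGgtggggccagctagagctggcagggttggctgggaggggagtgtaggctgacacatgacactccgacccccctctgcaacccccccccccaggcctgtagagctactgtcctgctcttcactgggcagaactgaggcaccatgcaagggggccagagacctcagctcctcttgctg
Ttn, chr2:76982498-76982797, minus strand: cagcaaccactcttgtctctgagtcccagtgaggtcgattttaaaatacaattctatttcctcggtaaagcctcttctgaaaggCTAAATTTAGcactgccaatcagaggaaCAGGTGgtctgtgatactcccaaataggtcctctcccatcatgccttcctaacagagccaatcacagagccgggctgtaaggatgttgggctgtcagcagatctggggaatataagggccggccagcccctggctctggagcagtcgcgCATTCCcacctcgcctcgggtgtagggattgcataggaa

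The PFL H3K27ac region overlapped the windows of Chrna1, Chrng and Ttn, and lay 657 bp from that of Actc1 and 812 bp from that of Acta1. The nearest DFL region was 4273 bp away from the Chrna1 window, 7472 bp from the Chrng window and 4517 bp from the Ttn window. The higher share of CAGCTG was found at the starts and not at the H3K27ac summits. In the 200 bases around the summits of the 53 PFL-alone regions at these promoters, CAGCTG was found in 13.2%, against 13.4% of all 69503 PFL regions. CACCTG or CAGGTG was found in 20.8% of the 53 against 11.9%, the MCAT box in 11.3% against 11.2%, and the CArG box in 5.66% against 0.87%. For the 61 PFL-alone regions in the wider windows but not at a promoter, CAGCTG was found in 8.20%. The summit window of a region downstream of Myh8, which held none of the 5 motifs searched there (TATAAA was left out), is printed as an example of a distant region that DFL lacked.
Myh8 downstream summit, chr11:67314201-67314400, plus strand: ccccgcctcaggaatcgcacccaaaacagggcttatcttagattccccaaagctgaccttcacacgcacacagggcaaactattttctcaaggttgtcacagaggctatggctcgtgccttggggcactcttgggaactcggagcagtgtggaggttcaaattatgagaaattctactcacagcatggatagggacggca

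Within 50 kb of the annotated 5′ end, H3K27ac regions covered more bases in PFL around 36 of the 38 genes and more in DFL around 2, Mef2c (5999 bp in DFL and 5531 bp in PFL) and Unc45b (3920 bp and 2796 bp). Over all genes 64.4% were longer in PFL. The median covered length was 2283.5 bp in DFL and 4281 bp in PFL, and the median difference (DFL minus PFL) was -1705 bp, against -243 bp over all genes and -455 bp over genes with an H3K27ac promoter in either piece. None of the 38 was covered at least 2 times as long in DFL, beside 2.23% of all genes, and 12 were at least 2 times as long in PFL, beside 7.81%. With lists of equal size the median difference was -1388.5 bp, against -143 bp over all genes. At a fold of at least 5 it was -12 bp, with 3 of the 38 at least 2 times as long in DFL and 2 in PFL. By role, the median difference was -2166 bp at the neuromuscular junction, -2018 bp in the thin filament, -1705 bp in the Z disc and scaffold group, -1448.5 bp in the thick filament and -596 bp in the excitation and energy group.

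The largest difference was at Tnnt3 (chr7:142498836-142516009, plus strand), with 15859 bp covered in DFL and 20000 bp in PFL. Its neighbour Tnni2, which shares part of that window, had 8445 bp in DFL and 11402 bp in PFL. This stretch of chromosome 7 also holds Lsp1, which encodes a protein of white blood cells, and Mrpl23, and part of the covered length lay within these. Myh3 had 1402 bp in DFL and 5435 bp in PFL. Des had 5958 bp in DFL and 9408 bp in PFL. Myl1 (chr1:66924295-66945404, minus strand) had 301 bp in DFL and 3536 bp in PFL. It encodes the essential light chain of fast fibres. At the junction, Musk had 1283 bp in DFL and 4407 bp in PFL. Tnnt1 had 4823 bp in DFL and 7399 bp in PFL, and Tpm1 had 8238 bp in DFL and 10669 bp in PFL. Among all genes these 8 differences lay between percentiles 0.353 (Tnnt3) and 3.10 (Tpm1), counted from the most PFL-sided. In 2 genes DFL had no region in the window at all. Myh8 had 0 bp in DFL and 2192 bp in PFL, and Mybpc1 had 0 bp in DFL and 851 bp in PFL. Short lengths in DFL beside longer ones in PFL were also seen at Actc1 (379 bp and 2349 bp), Actn2 (209 bp and 1984 bp) and Tnnt2 (408 bp and 2426 bp). At the other end, Casq2 had 680 bp in DFL and 686 bp in PFL.

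**Figure D2:**
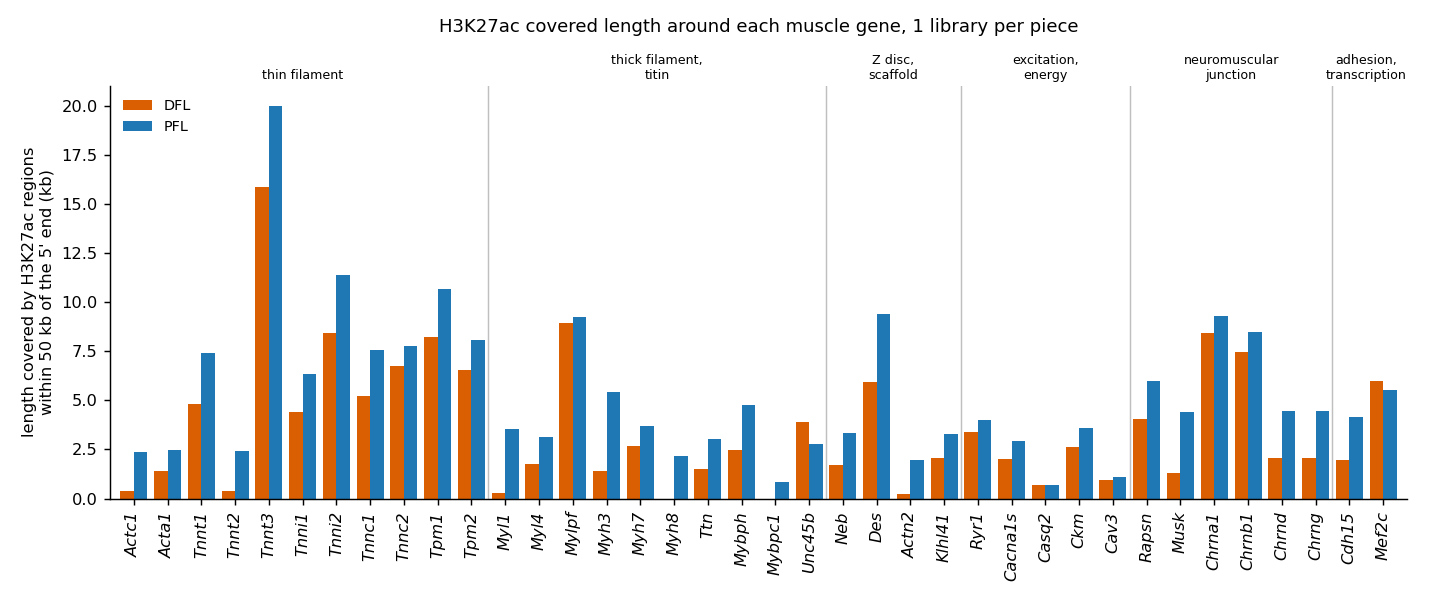
Length (kb) covered by H3K27ac regions within 50 kb of the 5′ end of each gene, with DFL bars to the left of PFL bars, 1 library per piece and genes grouped by role. The PFL bar is the taller for 36 of 38 genes, Mef2c and Unc45b being the exceptions, and Myh8 and Mybpc1 have no DFL bar.

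By 2 kb bin the difference was largest at the gene starts, and PFL also covered more in most bins away from them. In the first 2 kb downstream of the 5′ end, 7.06% of bases were covered in DFL and 29.6% in PFL, whereas over all genes it was 23.4% in DFL and 25.5% in PFL. In the 2 kb upstream, coverage was 7.67% in DFL and 12.4% in PFL, against 13.1% in DFL and 14.4% in PFL over all genes. The windows of the 38 genes held 203 distinct DFL regions, of which 29 (14.3%, Wilson 95% interval 10.1 to 19.8%) had no overlap with a PFL region, and 290 PFL regions, of which 114 (39.3%, 33.9 to 45.0%) had none with a DFL region. Across the genome these shares were 26.7% of DFL regions and 38.1% of PFL regions, so that the PFL share was near the genome's. After leaving out regions within 2 kb of the start of another gene, 24 of 120 DFL regions and 107 of 205 PFL regions (52.2%) had no counterpart. By place, 4 of 25 DFL and 53 of 75 PFL regions at the genes' own promoters lacked a counterpart (70.7% of the PFL regions), 4 of 16 and 9 of 20 in introns, and 21 of 159 and 52 of 192 (27.1%) outside the gene. Of all regions within 2 kb of the start of any gene, 4.88% in DFL and 11.3% in PFL had no counterpart. Away from every start, 20 of 103 DFL regions (19.4%) and 54 of 138 PFL regions (39.1%) in the windows had none, beside 36.4% in DFL and 48.6% in PFL across the genome.

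**Figure D3:**
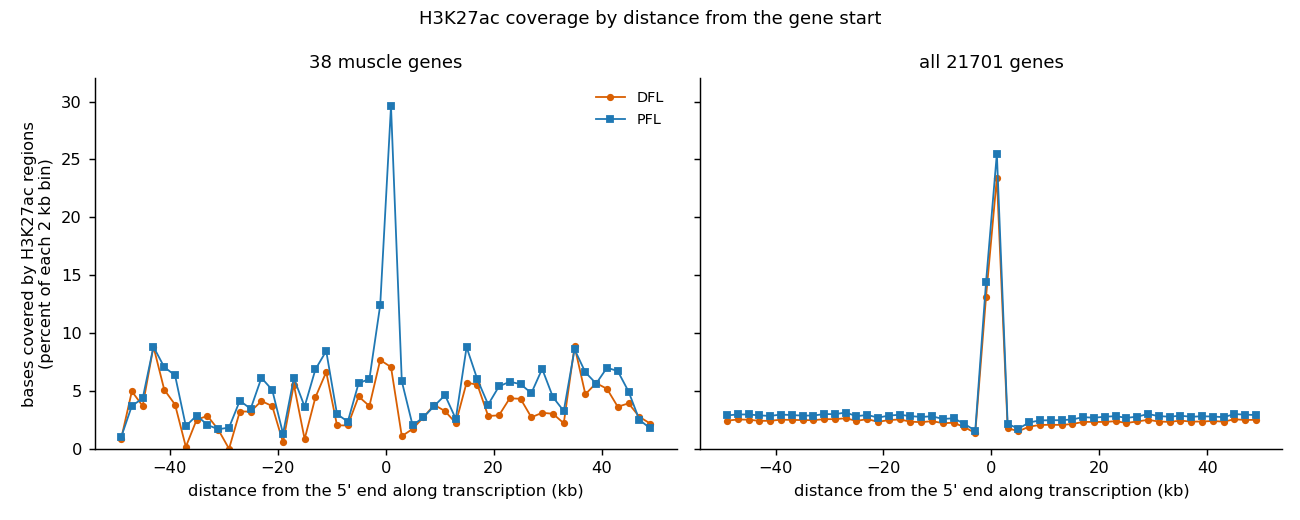
Percent of bases covered by H3K27ac regions in 2 kb bins from 50 kb upstream to 50 kb downstream of the 5′ end, for the 38 genes (left) and all 21701 genes (right), DFL as circles and PFL as squares. At the start the PFL curve of the 38 genes peaks at 29.6% and the DFL curve lies at 7.06%, while the curves of all genes peak at 23.4% in DFL and 25.5% in PFL.

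Some PFL regions that DFL lacked lay away from the promoters. Those with the highest pileups, 174, 167, 105 and 82, lay in the windows of Tnnt3 and Tnni2. Their folds were only 1.40, 1.59, 1.66 and 2.15. The 5 regions named next are examples and not the strongest by pileup. Upstream of Tpm1 a region at chr9:67071174-67072039 had a pileup of 79 and a fold of 3.78, with its summit at -22392 bp from the 5′ end and in no gene body. Past the 3′ end of Myh8, chr11:67314038-67314957 had a pileup of 69 and a fold of 4.82. A region downstream of Myh3 (chr11:67106131-67107064) and one upstream of Des (chr1:75344498-75344815) had pileups of 64, and one in an intron of Actn2 (chr13:12311918-12312368) had 60. None of these 5 overlapped a HOXA13 or HOXD13 region. Their assignment rests on distance alone, and other genes lie in the same windows. In the other direction, the strongest DFL region without a PFL counterpart was at Mef2c, with its summit at -1579 bp from the first start (chr13:83502338-83502597, pileup 66). At this start DFL had 3 regions, with summits from -1579 to 36 bp, while PFL had 2, with summits at 1166 and 2109 bp.

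H3K27me3 was called at none of the 38 promoters in DFL alone, at 3 in PFL alone and at 8 in both pieces. Over all genes this was 0.475% in DFL alone, 4.01% in PFL alone and 16.2% in both. The 3 PFL-alone regions were weak, with pileups of 22 at Chrng, 29 at Mef2c and 21 at Casq2. At the lowest background, 11 fragments sufficed in the shallower DFL library and 14 in PFL. Of the 23 genes with H3K27ac in PFL alone, Acta1, Actn2, Cacna1s, Des and Mybpc1 carried H3K27me3 in both pieces and Chrng in PFL alone, while 17 carried none in either. Among all 780 genes with H3K27ac in PFL alone, 47.8% had H3K27me3 in both pieces, 4.62% in PFL alone and 47.1% in neither. At Des the H3K27me3 pileup was 55 in DFL and 89 in PFL over the start that also had PFL H3K27ac. At Acta1 the highest H3K27me3 pileup was 87 in DFL and 117 in PFL, with summits 2389 and 2410 bp downstream of the start. Regions nearer the Acta1 start had 44 in DFL and 94 in PFL. At Cacna1s the H3K27me3 pileup was 59 in DFL and 118 in PFL, upstream and near Ascl5. Mybpc1 (16 and 21) and Actn2 (15 and 21) had weak regions. Among promoters with H3K27ac in both pieces, Chrnb1 (36 and 44), Tpm1 (66 and 63) and Tpm2 (53 and 74) also had H3K27me3 in both. The H3K27me3 level was also divided by the lowest background of its library. It was then higher in PFL at Des (17.9 in DFL and 18.8 in PFL), Cacna1s (19.3 and 24.9) and the nearer Acta1 regions (14.4 and 19.8). It was higher in DFL at the highest Acta1 region (28.4 and 24.7), Chrnb1 (11.7 and 9.27), Tpm1 (21.5 and 13.3) and Tpm2 (17.3 and 15.6). At Mybpc1 (5.22 and 4.42) and Actn2 (4.90 and 4.42) the highest regions of the pieces did not overlap. The Actn2 DFL region that did overlap the PFL one had 4.24, against 4.42 in PFL. In bulk tissue the presence of both marks at a promoter does not place them in the same cells. Within 50 kb the median H3K27me3 length was 803 bp in DFL and 1254.5 bp in PFL. It was longer in DFL around 5 genes, longer in PFL around 20 and equal around 13, and the median difference was -282 bp, against 0 bp over all genes. Of all genes, 4.40% had the longer H3K27me3 in DFL, 41.3% in PFL and 54.3% had equal lengths.

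CTCF did not differ in its calls at these promoters. It was called in both pieces at 14 of the 38 and in neither at 24, with none in 1 piece alone, beside 30% of all genes in both and 4.77% in 1 piece alone. The median CTCF length within 50 kb was 2269 bp in DFL and 2264 bp in PFL. Of 198 DFL CTCF regions in the windows 12 (6.06%) had no counterpart, and of 196 PFL regions 10 (5.10%), beside 11.3% in DFL and 8.21% in PFL across the genome.

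HOXA13 and HOXD13 pattern the hand, and their regions in earlier forelimbs lay within 2 kb of the start in 10 of the 38 genes, beside 37.5% of all genes. Among genes with an H3K27ac promoter in either piece, 7542 of 13623 had such a region. Both factors had a region at Mylpf (pileup 22 for HOXA13 and 42 for HOXD13), Tpm2 (42 and 37), Mef2c (44 and 29) and Unc45b (16 and 22). HOXA13 alone was at Myl1 (26) and Mybpc1 (19), and HOXD13 alone at Tnnc1 (24), Chrnb1 (24), Actn2 (20) and Tpm1 (25). Of these 10 promoters 7 had H3K27ac in both pieces, and 3, Myl1, Mybpc1 and Actn2, had it in PFL alone. Of the 114 PFL regions without a DFL counterpart, 7 (6.14%) overlapped a region of either factor, beside 3319 of 26481 such PFL regions across the genome.

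Other genes of the same pathways were counted in lists drawn up by function. None of them was marked at the promoter in DFL alone. Of 36 other contraction genes 8 were marked in PFL alone, of 16 other genes of excitation-contraction coupling 2, of 11 other junction and membrane genes 5, and of 7 fusion genes 1. Together they came to 16 of 70 (22.9%, Wilson 95% interval 14.6 to 34.0%), with a median 50 kb difference of -757 bp. No region was called in either piece at 24 of the 70 promoters, against 1 of the 38. Stac3, which couples the voltage sensor to the release channel, had no DFL promoter region and a PFL pileup of 66, with 824 bp in DFL and 4119 bp in PFL within 50 kb. Lmod3, which nucleates thin filaments, had no DFL promoter region and a PFL pileup of 49. Mymx, the small membrane protein of myoblast fusion, had none in DFL and 47 in PFL.

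Of 15 regulators of the muscle lineage, none was marked in DFL alone and 6 were in PFL alone. These were Myod1, Myf5, Myog, Pax7, Msc and Vgll2. Myog, the regulator that drives differentiation, had 2312 bp in DFL and 6704 bp in PFL within 50 kb, and a promoter pileup of 81 in PFL only. The list's summed length within 50 kb was 25117 bp in DFL and 49375 bp in PFL, and its summed promoter pileup 1271 fragments in DFL and 1737 in PFL. No promoter region was called for 7 of the 15 in DFL (Myod1, Myf5, Myog, Pax3, Pax7, Vgll2 and Msc) and for 1 in PFL (Pax3). The part of this list in the results for the 38 genes was not tested.

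Lists of other cells of the limb were counted in the same way. In DFL alone was 1 gene of all these lists, the endothelial Tie1. In PFL alone were none of 8 cardiac, 6 tendon, 7 cartilage or 8 housekeeping genes, 1 of 8 smooth muscle genes (Mylk), 1 of 6 nerve and Schwann cell genes (Isl1), 1 of 7 endothelial genes (Sox17) and 1 of 7 proximal limb genes (Pkdcc). Most cardiac genes (7 of 8) and nerve and Schwann cell genes (4 of 6) had no region in either piece, so their counts could show little. All cartilage and housekeeping genes were marked in both pieces. By covered length within 50 kb, tendon genes summed to 26712 bp in DFL and 39755 bp in PFL, endothelial genes to 16681 bp and 27641 bp, and distal limb genes to 77407 bp and 59300 bp, against 138418 bp in DFL and 202184 bp in PFL for the 38 muscle genes. The window of the cardiac troponin I gene Tnni3 held the same 4823 bp in DFL and 7399 bp in PFL as that of Tnnt1, beside which it lies.

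**Figure D4:**
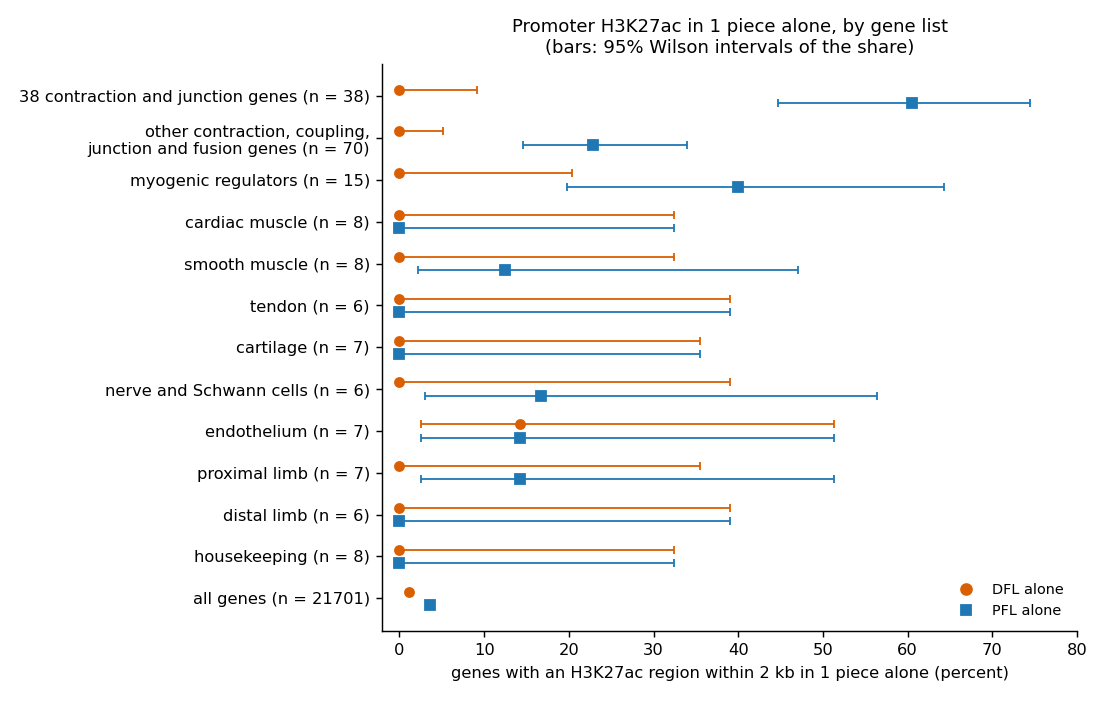
Percent of the genes of each list with an H3K27ac region within 2 kb in DFL alone (circles) or PFL alone (squares), with 95% Wilson intervals that cover counting error only. The 38 contraction and junction genes stand at 60.5% in PFL alone and none in DFL alone, the other muscle genes at 22.9% in PFL alone, and all genes at 1.16% in DFL alone and 3.59% in PFL alone.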

How the data were processed

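The 6 ChIP-seq samples and their groups were taken from the sample titles. The lists were made by the authors from earlier published reads with cutadapt, Bowtie, SAMtools and MACS2 on mm10, each library by itself, without an input control. Each line gives an interval, a score, a fold over the local background (a ratio), −log10 p and q, and a summit, all deposited by the authors. The weakest q of the lists lay near 0.05. Replicates were not pooled, as there was 1 library per mark and piece, and read totals were not used.

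Lines of 1 interval were collapsed and overlapping regions merged, on 19 autosomes and X. Summit pileup and local background were recovered from the fold and −log10 p that the authors deposited, with the Poisson distribution, to within 0.001 of −log10 p, in Python 3.11.15 with numpy 2.4.6 and scipy 1.17.1. Pileup intervals are exact Poisson and shares carry Wilson intervals at 95%. A promoter is a 2 kb window around any start of the GENCODE vM21 basic set, and covered length was summed within 50 kb of the 5′ end. Of 21755 protein-coding genes, 54 without a unique symbol were left out. The score column was only read as deposited by the authors and entered no result. The functions were checked on simulated regions.

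The 38 genes and the other lists were chosen with earlier results of these data known. All 38 are named, with values for promoters whose marks differ between pieces, the 8 largest differences in covered length, and those with a HOX13 region. From other lists at most 4 genes with the largest differences are named, beside the promoters counted in 1 piece alone and the check of the pieces. No random or matched genes were drawn. Counts are set beside those of all genes instead. Alternatives were stricter fold and q limits, lists of equal size, other windows, merging and counting regions. Leaving out neighbours and rescaling pileups were chosen after seeing the data. Some single results are not reported here.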

Additional observations from a re-analysis of the deposited data

How the results depend on the processing

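No paired analysis was possible because each mark and piece had 1 library. The count of promoters with H3K27ac in PFL alone was 17 to 25, with 17 to 22 of the 23 among them, under a −log10 q of at least 5, lists of equal size, 1 kb and 5 kb windows or the annotated 5′ end alone. With a fold of at least 5, H3K27ac was at 2 promoters in DFL alone and 2 in PFL alone (1.82% and 2.56% of all genes), 3 genes had at least 2 times the length in DFL and 2 in PFL, and the median DFL minus PFL was -12 bp. In this setting H3K27me3 was at 1 promoter in PFL alone with a 50 kb median of 0 bp, CTCF in 1 piece alone at 1, and HOX13 at 1. The H3K27ac median was -952 bp within 20 kb, and 2 genes had at least 2 times as many regions in DFL and 14 in PFL (4.28% and 12.4% of all genes). H3K27me3 in PFL alone was at 1 promoter with lists of equal size (with 2 in DFL alone), with a 1 kb window or with the 5′ end alone, and at 6 with a 5 kb window. Its 50 kb median was -20.5 bp with a −log10 q of at least 5, 0 bp with lists of equal size or within 20 kb, and -752 bp within 100 kb. HOX13 was at 4 promoters with a −log10 q of at least 5 and at 16 with a 5 kb window (22.8% and 44.7% of all genes). The cause of these shifts was not tested. With neighbours left out, chosen after seeing the data, the H3K27ac median was between -1548 and -1937 bp. The lowest H3K27me3 background was 3.06 fragments in DFL and 4.75 in PFL, which limits how weak a region could be called.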
